A study of Mus musculus with 54 samples.

Results

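Bulk RNA of whole mouse kidneys was compared with bulk RNA of cold-dissociated kidney cell suspensions, to ask which transcripts are gained or lost when a kidney becomes a suspension of single cells. The members are 6 of the 54 samples of the series, chosen by their labels and not by any measured value: 3 intact kidneys and 3 suspensions. All 6 came from untreated female wild-type Balb/c mice aged 15 weeks, which had earlier been used as breeders. The kidneys of both groups were freed of their capsule. The intact kidneys were flash-frozen before RNA was extracted. The suspensions were minced on ice, digested in the cold with a protease of Bacillus licheniformis together with DNase I, spun, passed through strainers and used fresh, and their RNA came from the cells that remained after the protocol. Poly(A) selection and a read length of 60 nt were common to both groups. Each workflow was run on kidneys of 3 different mice, and the sources used here do not say whether the suspensions and the intact kidneys shared mice, so the comparison was unpaired.

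A nephron begins at the glomerulus, whose podocytes wrap the capillaries, and runs through the proximal tubule, the loop of Henle, the distal convoluted tubule and the connecting tubule into the collecting duct. The proximal tubule is divided into segments S1 to S3: S1 and S2 lie in the cortex and take back most glucose, amino acids and phosphate, and S3 is the straight part that descends into the outer medulla and carries many organic anion transporters. Between the tubules lie capillaries, fibroblasts in collagen matrix, resident macrophages and the muscular walls of arterioles. Dissociation has to free each of these from its basement membrane or matrix, and cells differ in how easily they come loose and survive. In bulk RNA, fewer cells of a type and less RNA per cell cannot be told apart.

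Total counts were 29097780 to 31093949 in the intact kidneys and 21984996 to 26295983 in the suspensions, and 23837 to 24797 against 22565 to 22729 genes had at least 1 count. Log-scale correlations were 0.9955 to 0.9971 within groups and 0.9836 to 0.9874 between them, and the counts of no pair matched within sampling noise, so all 6 were kept. Both groups expressed the defining genes of kidney epithelium, such as Umod at 3330 to 3768 CPM, the counts of a gene when its library is scaled to 1000000 counts. The 12 fat cell genes summed to 56.95 to 97.8 CPM in the intact kidneys and 30.5 to 33.4 CPM in the suspensions, most of it Fabp4, a fatty acid binding protein that capillary endothelium also makes. Of 4 tested Fabp4 alone was lower, by 1.00 on the log2 scale, and without intact kidney 1, by edgeR's exact test or by DESeq2, 3 of 4 were. Of the others, Cfd and Car3 had changes of -7.55 and -4.23 without passing the main test, and Plin4 of -0.10. Adipoq, the hormone adiponectin, was at 2.25 CPM in intact kidney 1 against 0.1004 and 0.306 CPM in the other intact kidneys and at most 0.0454 CPM in the suspensions. The part of fat cell RNA in the results was not tested. The mitochondrial genome took 2.22% to 2.32% of counts in the intact kidneys and 3.97% to 4.86% in the suspensions, and hemoglobin genes took 0.00543% to 0.0206% and 0.0231% to 0.0874%.

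Of 29071 genes listed, 16538 passed the filter on low counts. A gene was called when its adjusted p was below 0.05 in edgeR's quasi-likelihood test and its log2 fold change was beyond 2, which is 4-fold. In the suspensions 32 genes were called higher, 0.193% of those tested, and 233 were called lower, 1.41%. By adjusted p alone 1322 genes were higher, 7.99%, and 2004 were lower, 12.1%. These shares are the background for the counts in every gene list below. The median log2 fold change over all genes tested was 0.0029. Without the genes of the mitochondrial genome and of hemoglobin, 30 genes were called higher and 232 lower. Without suspension 2, 55 genes were called higher. All 265 called genes had 3 libraries of one group above all 3 of the other, a separation that 17.0% of genes tested showed towards the suspensions and 19.9% towards the intact kidneys.

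**Figure D1:**
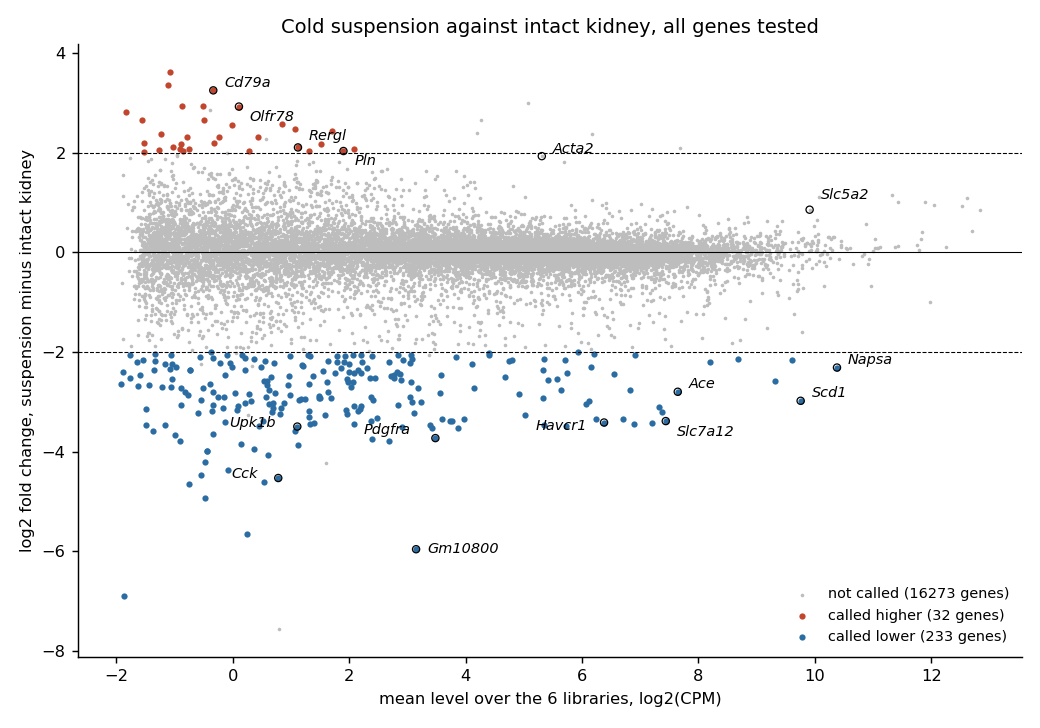
Each point is 1 of the 16538 genes tested, with its mean abundance in log2 CPM on the x axis and its log2 fold change, suspension minus intact kidney, on the y axis; coloured points are the 32 genes called higher and the 233 called lower. Losses reach far into abundant transcripts, whereas the genes called higher all sit at low abundance.

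The losses and the gains lay at different abundances. Of the 233 genes called lower, 204 reached a mean of 1 CPM in the intact kidneys, 76 reached 10 CPM and 22 reached 100 CPM. Of the 32 called higher, 17 reached 1 CPM in the suspensions, and the highest of them, the mitochondrial tRNA gene mt-Tp, had a mean of 6.83 CPM. Genes lower at adjusted p had longer transcripts, with a median of 4081 nt against 3165 nt over all genes tested with a transcript. The median was 3077.5 nt for genes higher at adjusted p and 2926 nt for genes called lower, and the part of length in the results was not tested.

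Genes of the S3 segment of the proximal tubule were lower in the suspensions. Of 14 S3 marker genes, all tested, 12 were lower at adjusted p, 9 of them called, and none was higher, against the 12.1% and 1.41% of all genes. The median change was -2.67 on the log2 scale. Part of this list also stands in the study's own gene list from these libraries, so its direction is not independent evidence. Slc7a12, an amino acid transporter of the straight proximal tubule (chromosome 3, 14480697 to 14505830 in GRCm38), read 359, 286 and 305 CPM in the intact kidneys and 34.5, 28.3 and 28.3 CPM in the suspensions. Each suspension was far below each intact kidney, and the gene fell by 3.38 ± 0.11 (SE) on the log2 scale, or 10.4-fold (adjusted p = 3.73e-07). Slc22a7, the organic anion transporter OAT2, read 293, 218 and 296 CPM and then 26.7, 23.7 and 25.1 CPM. It fell by 3.42 ± 0.13 on the log2 scale (adjusted p = 2.75e-06). Mep1b, the beta subunit of the brush-border protease meprin, went from 248, 202 and 207 CPM to 22.3, 19.7 and 18.3 CPM, and fell by 3.45 ± 0.10 on the log2 scale (adjusted p = 6.37e-08).

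Other S3 genes fell by unequal amounts. The organic anion transporters Slc22a19 and Slco1a6 fell by 3.11 and 3.20 on the log2 scale and Slc22a13, a urate and nicotinate transporter, by 2.98. Aadat, an aminotransferase of tryptophan and lysine breakdown, read 1178, 994 and 1123 CPM in the intact kidneys and 193, 171 and 188 CPM in the suspensions. Napsa, an aspartic protease of lysosomes, read 2357, 2020 and 2287 CPM and then 464, 419 and 460 CPM. Neither gene's groups overlapped, and they fell by 2.58 and 2.31 on the log2 scale. The smallest losses were those of Slc6a18, a neutral amino acid transporter, which fell by 1.61, and Acy3, an aminoacylase, which fell by 0.97. The S3 markers Slc7a13 and Cyp7b1 did not pass, at 0.231 to 0.837 CPM against 0.169 to 0.527 CPM and at 2.04 to 2.48 CPM against 2.33 to 4.08 CPM. Summed over the list, S3 genes took 7106 to 8055 CPM in the intact kidneys and 1716 to 1822 CPM in the suspensions.

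Genes of the S1 segment moved the other way. Of 9 S1 markers, all tested, 5 were higher in the suspensions at adjusted p, none was lower and none was called, with a median of 0.48. Slc5a2, the glucose transporter SGLT2 that reclaims most filtered glucose, read 709, 729 and 619 CPM in the intact kidneys and 1226, 1188 and 1306 CPM in the suspensions. All 3 suspensions were above all 3 intact kidneys, and the gene rose by 0.85 ± 0.073 on the log2 scale (adjusted p = 1.70e-05). Slc7a8, a basolateral amino acid transporter, rose by 0.70, Spp2, a secreted phosphoprotein, by 0.59, Slc7a7, a cationic amino acid exchanger subunit, by 0.48 and Slc2a2, the glucose transporter GLUT2, by 0.29. Slc5a12, a lactate transporter, and Slc6a19, the main neutral amino acid transporter of early segments, had changes of 0.40 and 0.63 with adjusted p of 0.164 and 0.102. For both, intact kidney 3 was the lowest of all libraries.

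Genes used along the whole proximal tubule split. Of 13 such genes 4 were higher and 3 lower at adjusted p, with a median of 0.05. Gatm, the first enzyme of creatine synthesis, rose by 0.58 and Slc34a1, the main phosphate transporter, by 0.40. The endocytic receptor Lrp2, megalin, read 5961, 5576 and 4672 CPM in the intact kidneys and 2834, 2581 and 2752 CPM in the suspensions. It fell by 0.99 ± 0.092 on the log2 scale with no overlap (adjusted p = 3.31e-05), and its partner Cubn, cubilin, fell by 0.63. Slc27a2, a fatty acid transporter and very long chain acyl-CoA synthetase, fell by 0.68. The sum over the list was 23108 to 27278 CPM in the intact kidneys and 23829 to 24222 CPM in the suspensions, so the groups overlapped as a whole.

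**Figure D2:**
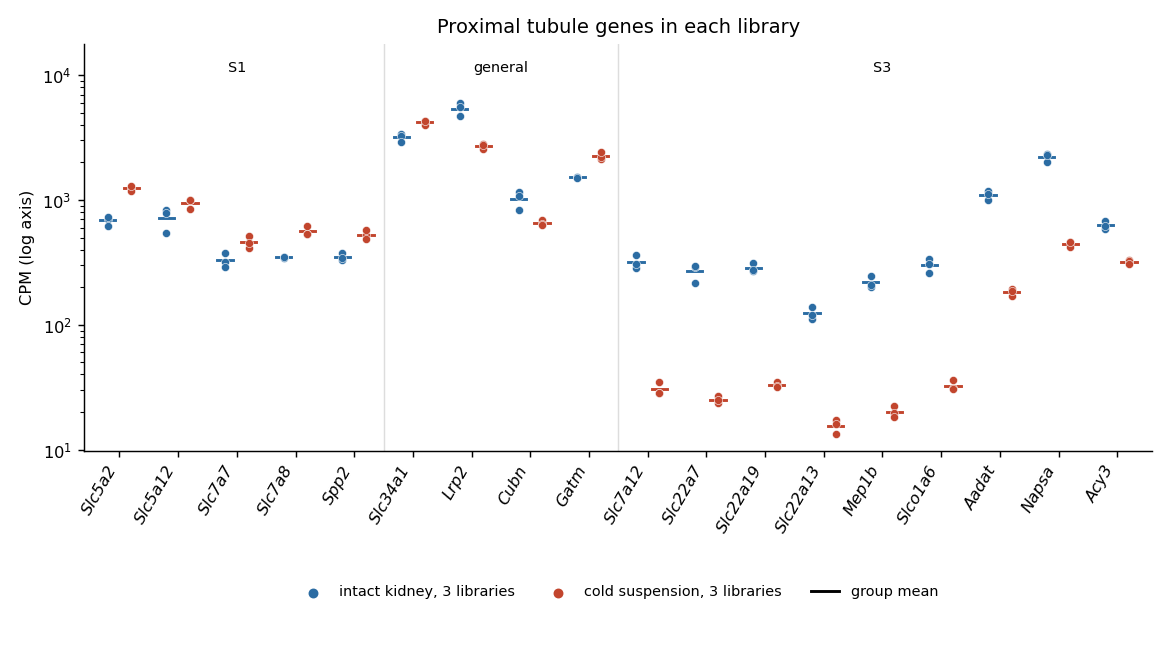
CPM on a log axis in each of the 3 intact kidneys and 3 suspensions for markers of the S1 segment, of the whole proximal tubule and of the S3 segment, with 1 point per library and a bar at each group mean. The S3 genes Slc7a12, Slc22a7 and Mep1b drop by about an order of magnitude in every suspension, while Slc5a2 of the S1 segment sits above its intact values in all 3.

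Among transporters, brush-border enzymes and lipid genes a few members fell steeply, and others fell by less, rose or did not pass. Of 27 organic ion and drug transporters 26 were tested, and 12 of those were lower at adjusted p, 7 called, and none higher, with a median of -0.42. The 7 included the S3 genes above and Abcc3, an export pump for conjugated compounds, which went from 110, 142 and 106 CPM to 14.7, 14.3 and 14.4 CPM and fell by 3.05 ± 0.12 on the log2 scale (adjusted p = 1.30e-06). Slc22a8, Abcg2 and Abcc4, transporters of organic anions, urate and nucleotides, had changes of 0.13, 0.02 and 0.09 with overlapping groups, none past the test. Of 13 brush-border enzymes 12 were tested, with 7 lower, 2 of them called, and 2 higher. Ace, angiotensin-converting enzyme, read 412, 326 and 312 CPM in the intact kidneys and 56.0, 47.3 and 47.8 CPM in the suspensions, a fall of 2.80 ± 0.12 (adjusted p = 4.10e-06) with no overlap. Mme, neprilysin, fell by 1.34 and Mep1a, the other meprin subunit, by 1.23, whereas the dipeptidase Dpep1 and the alkaline phosphatase Alpl rose by 0.54 and 0.42.

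Single genes of lipid and arginine metabolism fell as steeply as S3 markers, while other members of their pathways fell by less, rose or did not pass. Scd1, the desaturase that makes monounsaturated fatty acids (chromosome 19, 44394455 to 44407879), read 1512, 1358 and 1738 CPM in the intact kidneys and 179, 175 and 231 CPM in the suspensions. It fell by 2.98 ± 0.14 on the log2 scale, without overlap (adjusted p = 3.88e-06). Of the 18 sterol and fatty acid synthesis genes 4 were lower and none higher, and Srebf2, which controls the sterol genes, had a change of 0.02 without passing. At adjusted p 12.1% of all genes were lower and 7.99% higher. Of 19 fatty acid oxidation genes 6 were lower, against 1 higher. The only 1 called was Cd36, a fatty acid uptake receptor on that list, which fell by 2.44. Among 12 tested genes of gluconeogenesis and arginine synthesis, Arg2, mitochondrial arginase, fell by 2.84 and Agmat, agmatinase, by 2.01, while Asl and Ass1, which make arginine, rose by 0.51 and 0.31.

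Havcr1, the kidney injury molecule KIM-1 that damaged proximal tubules display, was another steep loss (chromosome 11, 46735080 to 46779578). It read 153, 158 and 145 CPM in the intact kidneys and 14.3, 14.2 and 14.3 CPM in the suspensions, a fall of 3.41 ± 0.058 on the log2 scale or 10.7-fold (adjusted p = 1.60e-10). The groups were narrow and far apart. No other injury gene was called. Of 11 tested, Krt8 also fell, by 0.22, while Clu, clusterin, rose by 0.75, Cd44, a hyaluronan receptor, by 0.93 and Spp1, osteopontin, by 0.27. Lcn2, the injury marker NGAL, was at 1.68, 1.91 and 3.09 CPM and at 3.22, 1.96 and 2.58 CPM, overlapping.

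The 22 genes called lower with a mean of at least 100 CPM in the intact kidneys included 13 members of these lists. The remaining 9, named after their values were seen, were Kap, Mpv17l, Slc9a8, Mettl7a2, Ppic, Serpina1f, Ceacam2, Myo5a and Spidr. Kap, the androgen-regulated kidney protein, went from 1360, 1161 and 1311 CPM to 329, 266 and 266 CPM and fell by 2.16 ± 0.098 on the log2 scale (adjusted p = 4.29e-07). Slc9a8, a sodium/proton exchanger, went from 499, 465 and 479 CPM to 106, 105 and 104 CPM. Both fell in every suspension without overlap. Mettl7a2 and Ceacam2 have close paralogs, so their counts are uncertain.

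The thin limb and thick ascending limb of Henle's loop had no gene higher, with 2 of 7 and 2 of 12 lower. Over all genes 7.99% were higher and 12.1% lower, so the thick ascending limb counts were near that background. Umod, uromodulin, and Slc12a1, the loop sodium transporter, had changes of 0.05 and -0.23 with adjusted p of 0.699 and 0.0921. Foxq1, a transcription factor, was at 96.5, 143 and 116 CPM in the intact kidneys and at 31.8, 47.6 and 32.9 CPM in the suspensions. It fell by 1.66 ± 0.23 (adjusted p = 0.00690), with no overlap. Sptssb, a regulator of sphingolipid synthesis on the thin limb list, fell by 2.37 and was the only member of either list that was called. Without suspension 1 or suspension 2 each list had 1 lower member, and without the low-count filter 6 thick ascending limb genes were lower and 1 was higher.

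Genes of the distal convoluted and connecting tubules were mostly higher in the suspensions. Of 8 distal convoluted tubule genes 6 rose and none fell, and all 5 connecting tubule genes rose, with medians of 0.44 and 0.62. Slc12a3, the thiazide-sensitive sodium chloride cotransporter, read 887, 844 and 747 CPM in the intact kidneys and 1310, 1176 and 1104 CPM in the suspensions, a rise of 0.54 ± 0.082 (adjusted p = 0.00103). Calb1, a calcium-binding protein of the connecting tubule, rose by 0.62 and Klk1, tissue kallikrein, by 0.65. Without intact kidney 3 or suspension 2, 3 of the 5 connecting tubule genes passed.

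In the collecting duct 5 of 11 principal cell genes rose and 1 fell. Hsd11b2, which shields the mineralocorticoid receptor from glucocorticoid, rose by 0.68 and Scnn1b, a subunit of the epithelial sodium channel, by 0.79. Aqp2, the vasopressin-regulated water channel, overlapped, at 407, 328 and 631 CPM against 728, 395 and 581 CPM. The exception was Aqp4, a basolateral water channel also found in S3 tubules of mice, which went from 198, 153 and 198 CPM to 56.4, 38.1 and 52.8 CPM. It fell by 1.90 ± 0.18 (adjusted p = 0.00119). All 14 intercalated cell genes had positive changes, but only the ammonia transporters Rhbg and Rhcg passed, at 0.70 and 0.64. That list depended on single libraries: 11 passed without suspension 3, 5 without suspension 1 and 1 without any other single library, and 5 passed by the exact test.

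Podocyte genes leaned upward, with 4 of 13 higher, 1 lower and a median of 0.32. Wt1, the podocyte transcription factor, read 13.8, 15.8 and 15.8 CPM in the intact kidneys and 19.5, 19.5 and 27.0 CPM in the suspensions. It rose by 0.54 ± 0.13 (adjusted p = 0.0175). Nphs1, nephrin of the slit diaphragm, was higher in all suspensions, at 53.5 to 84.4 CPM against 39.5 to 49.5 CPM, without passing (adjusted p = 0.110). Tcf21, a transcription factor of podocytes and of kidney stroma, fell by 0.76 (adjusted p = 5.80e-04). Without intact kidney 1, 2 podocyte genes were higher, and in DESeq2 7 were.

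Genes of the urothelium, the lining of the renal pelvis, were lower. Of 9 genes 6 were lower, 4 of them called, and none higher, with a median of -1.91. Upk1b, a uroplakin of the apical plaque, was at 4.69, 3.51 and 3.67 CPM in the intact kidneys and at 0.363, 0.226 and 0.466 CPM in the suspensions. It fell by 3.49 ± 0.26 on the log2 scale (adjusted p = 6.82e-06), with no overlap, and Upk3a and Psca, a surface antigen of the same cells, fell by 3.44 and 3.43. Krt5, Trp63 and Grhl3, the keratin and the transcription factors of basal cells and of differentiation, overlapped, with changes of 0.15, -0.06 and -0.07. The 3 tested of 4 mesothelial genes all fell, Msln, mesothelin of the cells that cover the organ, by 3.58. Part of the urothelium list stands in the study's gene list from these libraries too.

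**Figure D3:**
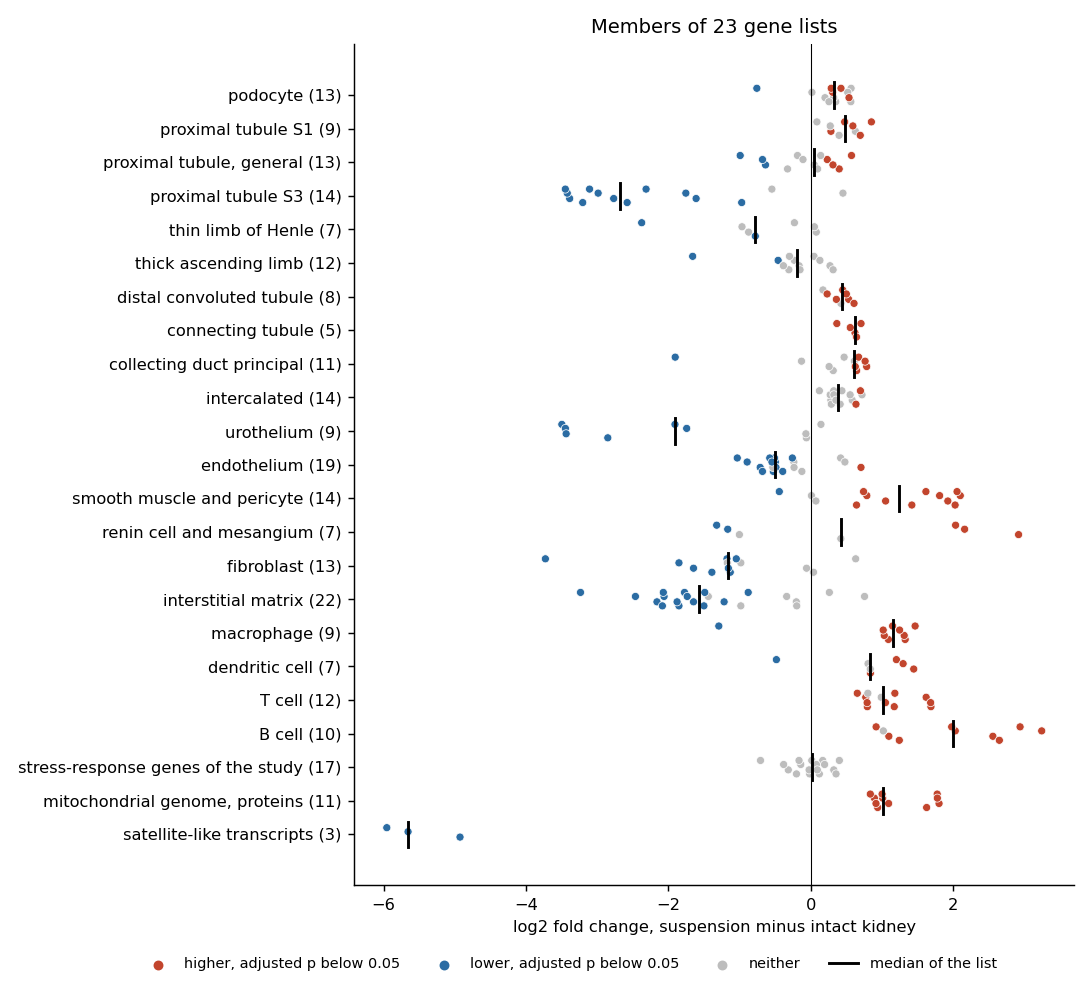
Each point is a tested gene of 1 of 23 lists, placed by its log2 fold change, suspension minus intact kidney, and coloured by adjusted p below 0.05 in edgeR's test; the black bar is the median of the list and the number in brackets is how many genes were tested. S3, urothelium, fibroblast and matrix genes lie to the left, muscle, immune and mitochondrial genes to the right, and the stress-response genes around 0.

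Genes of the interstitium were lower too. Of 22 interstitial matrix genes, all tested, 15 were lower, 6 of them called, and none was higher, with a median of -1.57. Of 13 tested fibroblast genes 8 were lower and none higher. Pdgfra, the growth factor receptor that marks interstitial fibroblasts (chromosome 5, 75152292 to 75198215), read 21.2, 22.5 and 18.6 CPM in the intact kidneys and 1.18, 1.39 and 2.12 CPM in the suspensions. It fell by 3.73 ± 0.17 on the log2 scale, or 13.2-fold (adjusted p = 1.98e-07), and no library overlapped. Prelp, a leucine-rich proteoglycan that anchors collagen to basement membrane, fell by 3.23, and Col6a3, Col5a1, Col14a1, Fmod and Col6a1, chains and binders of collagen fibrils, by 2.46, 2.16, 2.07, 2.08 and 2.06. Col3a1, the fibrillar collagen of reticular fibres, went from 27.3, 40.9 and 26.3 CPM to 8.90, 8.09 and 9.27 CPM.

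A few stromal genes did not fall. Pi16 and Clec3b, genes of adventitial fibroblasts around vessels, were at 10.6 to 15.0 CPM against 14.3 to 24.8 CPM and at 1.16 to 1.51 CPM against 1.32 to 1.52 CPM, both overlapping. Eln, elastin of vessel walls, was higher in all suspensions, at 19.7, 13.1 and 25.8 CPM against 11.2, 10.3 and 13.1 CPM, with an adjusted p of 0.0826. Col5a2, whose partner chain Col5a1 fell, overlapped at 42.0 to 56.3 CPM and 49.1 to 66.6 CPM. Fibroblast and collagen genes were thus not lower without exception.

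Basement membrane genes fell less. Of 18 genes 12 were lower, 1 of them called, and 1 was higher, with a median of -0.29. Nid1, nidogen, which ties laminin to collagen IV, went from 44.1, 52.0 and 41.4 CPM to 15.8, 16.4 and 17.95 CPM, a fall of 1.45 ± 0.092 (adjusted p = 2.34e-06). Lama2, a laminin chain of muscle and nerve sheaths, fell by 2.14, and Col4a3, a collagen IV chain that podocytes make, by 0.45. Col18a1, the source of endostatin, rose by 0.27 (adjusted p = 0.0186), and in 3 of 14 alternative settings it did not pass.

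Endothelial genes were lower by modest amounts. Of 19 genes 12 were lower and 1 higher, none called, with a median of -0.49. Plvap, which forms the diaphragms of fenestrated capillaries, read 132, 151 and 138 CPM in the intact kidneys and 74.2, 72.4 and 59.9 CPM in the suspensions. It fell by 1.03 ± 0.085 (adjusted p = 3.13e-05), Eng, endoglin, by 0.89 and Kdr, the main VEGF receptor, by 0.49. The general markers Pecam1 and Cdh5 did not pass, at -0.23 each. Sox17, a transcription factor of arterial endothelium, was the exception: it read 15.0, 16.9 and 17.6 CPM and then 32.0, 23.0 and 26.2 CPM, and rose by 0.71 ± 0.12 (adjusted p = 0.00234). Nos3, nitric oxide synthase of the same cells, and Sema3g, a semaphorin of arteries, overlapped, with changes of 0.42 and 0.48.

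Contractile genes of the vessel wall rose. Of 14 smooth muscle and pericyte genes 11 were higher, 3 of them called, and 1 was lower, with a median of 1.24. Part of this list also stands in the study's list from these libraries. Acta2, smooth muscle actin, read 12.7, 13.6 and 23.3 CPM in the intact kidneys and 68.1, 63.1 and 57.2 CPM in the suspensions. It rose by 1.93 ± 0.25 on the log2 scale, or 3.81-fold (adjusted p = 0.00538), with every suspension above every intact kidney. Myh11, the myosin heavy chain of smooth muscle, went from 20.5, 20.1 and 28.1 CPM to 97.0, 74.8 and 69.6 CPM, a rise of 1.81. The 3 called genes were Pln, phospholamban, which restrains the calcium pump, Rergl, a Ras-like protein, and Myocd, myocardin, the coactivator that switches on contractile genes, with changes of 2.03, 2.10 and 2.06. Rgs5 and Notch3, which pericytes share, rose by 1.05 and 0.65. In 5 of 14 alternative settings Rgs5 did not pass. Des, desmin, which mesangial cells and pericytes also carry, was the member that fell, by 0.44, and Mylk and Synpo2 overlapped.

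Genes of the juxtaglomerular wall divided. Olfr78, an odorant receptor of arteriolar muscle and renin cells that senses short-chain fatty acids, read 0.132, 0.234 and 0.374 CPM in the intact kidneys and 2.50, 1.73 and 1.48 CPM in the suspensions. It rose by 2.92 ± 0.35 on the log2 scale (adjusted p = 1.98e-04). Olfr558, another odorant receptor, rose by 2.04, and for both genes every suspension was higher. Ren1, renin itself, was at 54.6, 89.6 and 118 CPM in the intact kidneys and at 34.0, 43.5 and 53.5 CPM in the suspensions, lower without overlap but not past the test (adjusted p = 0.138). The mesangial genes Itga8 and Pdgfrb, an integrin and a growth factor receptor, fell by 1.32 and 1.16. Among the 15 steepest gains, Myh6, the alpha myosin heavy chain of heart, and the genes Susd5 and Mamdc2, which stand in no list, rose by 2.57, 2.44 and 2.31.

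**Figure D4:**
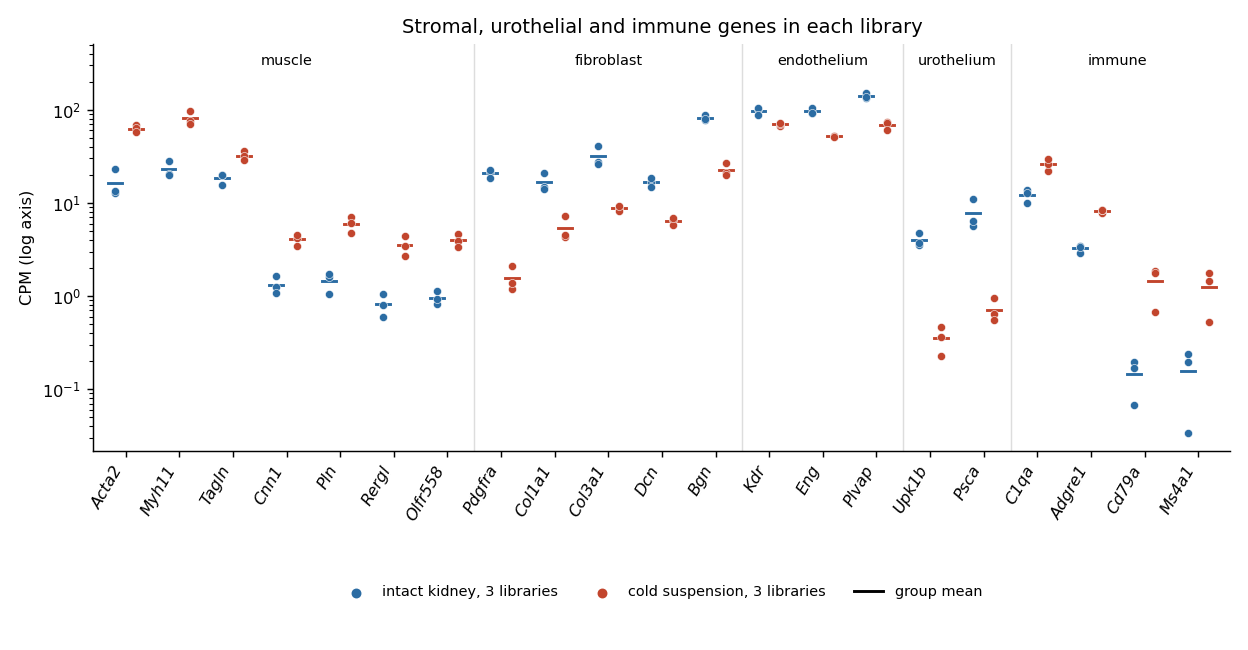
CPM on a log axis in each of the 3 intact kidneys and 3 suspensions for stromal, vascular and immune genes, with 1 point per library and a bar at each group mean. Acta2 and Myh11 lie higher in all suspensions, Pdgfra and Col3a1 lower, Upk1b and Psca lower, and Adgre1, C1qa, Cd79a and Ms4a1 higher.

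The promoters of the smooth muscle, S3 and stress-response lists were searched for motifs chosen after the values were seen. Whether either motif has a part in the changes of these genes was not tested. These were the CArG box, the site of serum response factor, which works with myocardin in smooth muscle, and CAAAGTCCA, a site of the tubule factor HNF4, both on either strand. RefSeq windows of GRCm38.p6, from 250 bases before to 50 after the start, matched 11 of the 14 muscle genes and 7 of the 14 S3 genes. The CArG box stood in 1 of the 11 muscle genes, Rergl, in 0 of the 7 S3 genes and in 1.63% of the 32851 promoters searched. The HNF4 letters stood in 1 of the 7 S3 genes, Aadat, in 0 of the 11 muscle genes and in 0.475% of the promoters searched. Neither motif stood in the windows of the 13 matched stress-response genes, which says only that the letters were not there. The rest of the 17 stress-response genes were not searched. Both promoters are shown with the motif in capitals, the first at chr6:139501860-139502159 on the minus strand and the second at chr8:60505874-60506173 on the plus strand, where the capitals are the HNF4 letters read on the opposite strand.
Rergl: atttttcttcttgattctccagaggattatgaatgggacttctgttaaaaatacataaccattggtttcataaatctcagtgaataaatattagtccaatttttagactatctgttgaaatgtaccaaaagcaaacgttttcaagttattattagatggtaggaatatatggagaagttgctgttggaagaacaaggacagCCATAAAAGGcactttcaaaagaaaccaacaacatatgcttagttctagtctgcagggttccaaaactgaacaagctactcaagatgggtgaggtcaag
Aadat: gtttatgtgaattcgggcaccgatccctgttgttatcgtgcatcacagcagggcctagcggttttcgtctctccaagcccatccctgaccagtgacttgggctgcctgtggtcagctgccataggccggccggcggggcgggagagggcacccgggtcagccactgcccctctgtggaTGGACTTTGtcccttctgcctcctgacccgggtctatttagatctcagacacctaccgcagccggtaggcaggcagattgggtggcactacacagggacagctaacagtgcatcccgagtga

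Most immune genes were higher in the suspensions. Of 10 B cell genes 9 were higher, 5 of them called, with a median of 2.01. Cd79a, the signalling chain of the B cell receptor, read 0.198, 0.0669 and 0.170 CPM in the intact kidneys and 1.86, 0.677 and 1.78 CPM in the suspensions. It rose by 3.25 ± 0.51 on the log2 scale (adjusted p = 0.00150), without overlap, though suspension 2 stood well below the other suspensions. Ms4a1, which encodes CD20, and Ighd, the IgD heavy chain, rose by 2.94 and 2.65, and Ighm, the IgM heavy chain, by 1.25. These genes rest on few counts, 13 against 101 for Cd79a summed over each group. The stricter filter left 4 B cell genes, of which 3 were higher, with a median of 1.06.

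Of 12 T cell genes 10 were higher and none lower, with a median of 1.02. Cd3g, a chain of the T cell receptor complex, was at 0.363, 0.234 and 0.407 CPM and then at 1.23, 1.28 and 0.762 CPM, a rise of 1.69 ± 0.32 (adjusted p = 0.00381). The count depended on single libraries: 2 to 6 T cell genes were higher when any one of intact kidney 1, intact kidney 3 or the 3 suspensions was left out. With DESeq2 6 passed, and with the stricter filter 4 of 6. Of 5 tested natural killer cell genes 2 rose, Nkg7, a cytotoxic granule protein, by 1.54, and 1 did without intact kidney 1, intact kidney 2 or suspension 1. In neutrophil genes 2 of 4 tested rose, S100a8, a calprotectin subunit, by 2.19 and Csf3r, the G-CSF receptor, by 1.83. Retnlg, which was not tested and which no intact library counted, was at 0.226 to 0.681 CPM in the suspensions. Without suspension 1, 1 of 4 neutrophil genes rose, and without suspension 2, 5 of 6 did. By adjusted p alone S100a8 did not pass in 5 of 13 alternatives. Slfn4, an interferon-inducible schlafen gene, rose by 2.32.

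Resident macrophage genes rose with 1 exception. Of 9 genes 8 were higher, with a median of 1.15. Cx3cr1, the fractalkine receptor, read 5.25, 5.99 and 6.35 CPM in the intact kidneys and 15.3, 14.3 and 19.1 CPM in the suspensions. It rose by 1.47 ± 0.13 (adjusted p = 2.37e-05), Adgre1, the F4/80 antigen, by 1.33 and C1qa, a complement chain, by 1.09. Csf1r, the receptor on which these cells depend, went against them: it read 136, 109 and 122 CPM and then 51.7, 42.5 and 56.2 CPM, a fall of 1.29 ± 0.12 (adjusted p = 2.17e-04). Each suspension was below each intact kidney for Csf1r and above for the other 8 genes. Zbtb46, a dendritic cell factor that endothelium also carries, was likewise the single dendritic cell gene that fell, by 0.48, while 4 of 7 rose; 2 rose without intact kidney 1, suspension 2 or suspension 3. Of 4 tested monocyte genes 2 rose, Ccr2, the receptor that brings monocytes into tissue, by 1.46.

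All 7 genes of the MHC class II pathway, by which B cells, macrophages and dendritic cells present antigen, were higher, with a median of 0.69. H2-Aa read 50.8, 61.2 and 59.5 CPM in the intact kidneys and 104, 108 and 128 CPM in the suspensions, a rise of 0.99 ± 0.096 (adjusted p = 1.54e-04). Cd74, the invariant chain, rose by 0.91. Without intact kidney 1, 4 of the 7 passed. Plasma cell genes did not move together, with none of 3 tested past the test. Tpsb2, a tryptase, was the 1 of 2 tested mast cell genes that fell, by 1.66, and without suspension 2 it did not pass (adjusted p = 0.0550 in edgeR's test) while Ms4a2, an IgE receptor subunit, was higher.

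Red cell genes varied widely between libraries, and none of 8 tested passed by the quasi-likelihood test. Hba-a1, an alpha globin with a near-identical copy, read 16.2, 10.3 and 43.4 CPM in the intact kidneys and 107, 52.8 and 202 CPM in the suspensions, a change of 2.37 ± 0.82 (adjusted p = 0.139). Alas2, the first heme enzyme of red cell precursors, read 4.23, 2.74 and 15.6 CPM and then 43.1, 19.3 and 117 CPM (adjusted p = 0.146). In both genes all suspensions were above all intact kidneys, and intact kidney 3 and suspension 3 were the highest of their groups. For each of these genes both groups ranked in the same order by library number, and whether libraries of like number share mice is not given. Of the 8 genes 5 had an unadjusted p below 0.05, and 6 passed by edgeR's exact test and by DESeq2.

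Transcripts of the mitochondrial genome were higher in every suspension. All 11 tested protein genes, all 9 tested tRNA genes and both rRNA genes passed, with medians of 1.01, 1.64 and 1.13. mt-Co1, the catalytic subunit of cytochrome oxidase, read 5376, 5080 and 5225 CPM in the intact kidneys and 9850, 8163 and 10044 CPM in the suspensions. It rose by 0.84 ± 0.089 (adjusted p = 7.97e-05), and mt-Nd1, of complex I, by 0.94. mt-Co2, mt-Co3, mt-Atp6 and mt-Atp8 were at 5.04 CPM or less in every library and are uncertain, since a near-identical copy of that stretch lies in the nuclear genome. Gm10222, a pseudogene on chromosome 1 called higher at 2.04, may share such reads. Of 78 tested nuclear genes of the respiratory chain 68 had positive changes, but the median was 0.07. At adjusted p 7 were higher and 2 lower, against 7.99% and 12.1% of all genes. Leaving out any 1 library left 0 to 9 of them higher.

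Among called genes of at least 1 CPM in the intact kidneys, the 3 largest fold changes belonged to a family of short transcripts resembling satellite repeats, the tandem DNA of centromeres. Gm10800 (chr2:98666547-98667301, minus strand) read 13.9, 11.8 and 26.7 CPM in the intact kidneys and 0.227, 0.263 and 0.339 CPM in the suspensions. It fell by 5.95 ± 0.53 on the log2 scale, or 62.0-fold (adjusted p = 6.27e-04), on 1559 against 20 counts. Gm10801 (chr2:98662237-98664083, plus strand) had 208 counts in the intact kidneys and 3 in the suspensions, a ratio of CPM of 55.9 (95% interval 18.9 to 273.2, counting error only). Gm21738 (chr14:19415857-19418930, minus strand) had 125 and 3 counts, a ratio of 33.6 (11.2 to 165.1). The other 9 listed members were not tested, at no more than 0.340 CPM in any library. Among the intact kidneys, intact kidney 3 was the highest for all 3 genes.

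These 3 transcripts, all annotated as protein coding in GENCODE vM21, share a word of 35 bases that occurs more than once in each. It is held by 19 of the 141767 transcripts of the annotation, and the 8 other genes that hold it were not tested, so reads of the family may be split among near-identical copies and the 3 values are not independent. The first 300 bases of a transcript from each of the chromosomes 2 and 14 are shown, with the shared word in capitals. The word stands once in each stretch shown, and the other of its 2 occurrences lies further along the transcript.
Gm10800: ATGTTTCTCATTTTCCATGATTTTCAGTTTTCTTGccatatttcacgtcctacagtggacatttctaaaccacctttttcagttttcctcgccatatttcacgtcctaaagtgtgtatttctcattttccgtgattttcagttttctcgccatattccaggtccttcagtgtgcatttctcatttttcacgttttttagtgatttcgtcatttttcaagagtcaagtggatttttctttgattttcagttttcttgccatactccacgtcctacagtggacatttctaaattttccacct
Gm21738: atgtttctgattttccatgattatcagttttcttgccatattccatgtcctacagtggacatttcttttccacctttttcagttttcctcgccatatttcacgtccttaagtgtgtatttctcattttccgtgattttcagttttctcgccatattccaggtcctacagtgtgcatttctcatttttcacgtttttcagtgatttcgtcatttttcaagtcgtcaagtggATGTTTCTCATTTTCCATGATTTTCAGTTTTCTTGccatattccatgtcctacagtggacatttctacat

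Beside these, the steepest losses among genes of at least 1 CPM in the intact kidneys were single genes of varied function. Gria4, a glutamate receptor subunit, was at 1.42, 1.57 and 0.951 CPM in the intact kidneys and at 0.0454, 0.0376 and 0.0847 CPM in the suspensions. Gabra3, a GABA receptor subunit, was at 3.17, 3.21 and 2.21 CPM and then at 0.182, 0.113 and 0.212 CPM. The groups were far apart, with falls of 4.46 ± 0.45 and 4.07 ± 0.31 on the log2 scale. Cck, the peptide hormone cholecystokinin, Ak5, an adenylate kinase of brain, Csmd1, a large complement-control protein, and Alx1, a homeobox factor, fell by 4.53, 4.60, 3.94 and 3.84, and Scgb1c1, a secretoglobin, had 103 counts against 3, a ratio of 27.7 (95% interval 9.21 to 136.4). Among glial genes, Ngfr, a neurotrophin receptor, was the 1 of 5 tested that passed, and it fell by 2.46. Mbp, a myelin gene, overlapped. The lists of the 15 steepest losses also held Gm28818, a lincRNA, Gm15968, a pseudogene inside Slc22a19 whose reads cannot be told from that gene's, and the little-known Ccdc182 and Fam150b, with changes of -4.36, -4.21, -3.98 and -3.98.

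Stress-response genes, which the study uses to judge dissociation, showed no difference between intact kidney and cold suspension that passed the test. None of the 17 passed, the median was 0.02, and by an unadjusted p below 0.05 3 (Hspa1b, Hspa8 and Hspb1) did. Fos, the immediate-early AP-1 factor, read 0.892, 10.1 and 26.5 CPM in the intact kidneys and 1.18, 8.35 and 24.3 CPM in the suspensions. The groups overlapped over nearly their whole range, with a change of -0.14 ± 1.42 (adjusted p = 0.964). Egr1, another immediate-early factor, read 3.87, 29.3 and 57.8 CPM and 5.17, 21.0 and 52.9 CPM, and Jun 35.4, 64.3 and 97.1 CPM and 44.2, 75.2 and 132 CPM. Libraries of one group differed far more in these genes than the groups did, with 1 low and 1 high library in each, so the unpaired test could not have detected a moderate difference. In both groups these 3 genes rose from library 1 to library 3, and whether libraries of like number share mice is not given.

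**Figure D5:**
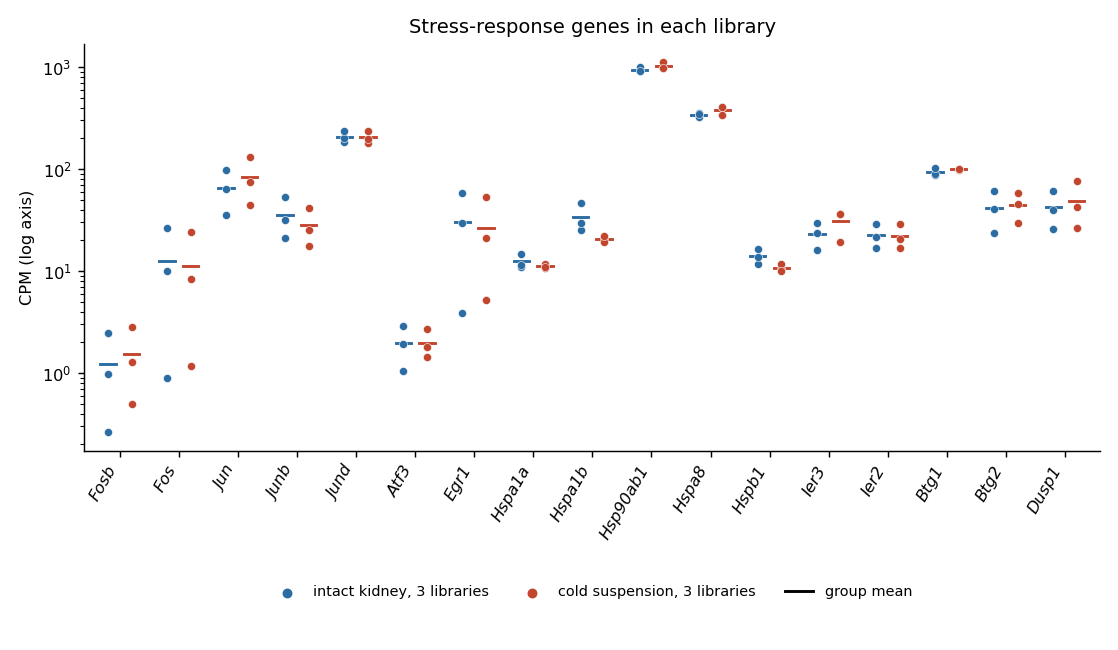
CPM on a log axis in each of the 3 intact kidneys and 3 suspensions for stress-response genes, with 1 point per library and a bar at each group mean. For Fos, Egr1 and Jun both groups span much the same range, whereas the chaperones Hsp90ab1 and Hspa8 are narrow in both groups.

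For the less variable stress genes the bounds were closer. Hspa8 and Hsp90ab1, constitutive chaperones, had changes of 0.17 ± 0.075 and 0.12 ± 0.070, and Btg1, an antiproliferative factor, by 0.08 ± 0.061. Hspa1b, the inducible HSP70, was lower in all suspensions, at 20.9, 19.3 and 22.0 CPM against 25.5, 29.8 and 46.0 CPM, with an adjusted p of 0.0982. It shares reads with its copy Hspa1a, which overlapped. By edgeR's exact test, and without intact kidney 1, 2 of the 17 were lower, and over all alternatives 0 to 1 were higher and 0 to 2 lower. Of 18 other tested immediate-early genes none was higher and 2 were lower, a share near the 12.1% of all genes. The 2 were Rhob, a small GTPase, which fell by 0.64, and Fosl2, an AP-1 factor, by 0.25. Leaving out any 1 of intact kidney 2, intact kidney 3, suspension 1 and suspension 2 left neither.

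Chaperones and the machinery common to all cells moved little. None of 12 chaperone genes passed in edgeR's test, 3 had an unadjusted p below 0.05, and without intact kidney 1, 2 were lower. Of 14 genes of the unfolded protein response 2 were lower, a share near the 12.1% of all genes. They were Pdia4, a disulfide isomerase, which fell by 0.36, and Chac1, which degrades glutathione, by 0.90. Leaving out any 1 library left 1 to 3 lower. The 81 tested cytosolic ribosomal protein genes had a median of 0.05 with 1 lower and none higher, and the 37 tested proteasome subunits a median of -0.05 with 1 lower and none higher. Of 15 proliferation genes none passed. The cold-inducible RNA-binding proteins Rbm3 and Cirbp had changes of 0.13 and 0.15 and overlapped.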

How the data were processed

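The deposited files held raw read counts per gene, 1 file per library, which the authors made by trimming reads with Trim Galore, removing ribosomal and low-complexity reads, aligning to GRCm38 with STAR 2.6.1a, marking duplicates with Picard and counting with featureCounts. The strand setting, and whether marked duplicates were counted, are not given in the sources used here. The labels name a directional NEBNext kit with poly(A) selection.

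Here 6 libraries were compared, 3 intact kidneys and 3 cold suspensions, numbered in accession order. Counts were filtered with filterByExpr, scaled by TMM and tested with edgeR's quasi-likelihood test (edgeR 4.0.16, limma 3.58.1, R 4.3.3), with Benjamini-Hochberg adjustment over all 16538 genes. Every adjusted p in the text is from this test unless another is named. Only the 6 libraries entered the fit, with no covariate. CPM are counts scaled to TMM-adjusted library totals of 1000000. Gene coordinates and types came from GENCODE vM21 (GRCm38), which matched 93.44% of symbols. The low-count ratios have exact 95% intervals that cover counting error only. The scripts were tested on simulated counts.

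Genes were named by rule: in each direction the 15 called genes with the largest change among those with a mean of at least 1 CPM in the higher group, and from each gene list its first 2 genes, the members past the test with the largest change and the most abundant members. Some genes that the rule names are not reported here. Chosen after their values were seen were Abcc4, Abcg2, Clec3b, Cyp7b1, Des, Dpep1, Egr1, Eln, Grhl3, Hspb1, Jun, Nos3, Notch3, Retnlg, Srebf2, Synpo2 and the 9 abundant genes named as such. The comparison and the gene lists were chosen with earlier results of these data known. The alternatives were edgeR's exact test, DESeq2 1.42.0, limma-voom, other scalings, filters and fold thresholds, leaving out the mitochondrial and hemoglobin genes, and leaving out each library.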

Additional observations from a re-analysis of the deposited data

How the results depend on the processing

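The number of genes called higher in the suspensions, 32, was 83 without the low-count filter, 12 with the stricter filter of at least 1 CPM in 3 libraries and 308 with a log2 threshold of 1. The number called lower, 233, was 370 without the low-count filter, 191 with the stricter filter and 575 with that threshold. Over the other tests and scalings the counts were 30 to 39 and 226 to 240. Leaving out a library gave 22 to 55 higher and 230 to 257 lower, of which 19 to 32 and 208 to 224 were among the genes called with all 6. By adjusted p alone, leaving out a library gave 888 to 1188 higher in place of 1322 and 1497 to 1999 lower in place of 2004. No named gene that passed the test, with all 6 libraries or under an alternative, changed sign between them. Genes that did not pass could change sign, as Fos did, at -1.34 to 1.05 over 14 alternatives. By adjusted p alone Gadd45a did not pass in 9 of 14, Chac1, Ero1l and Fosl2 in 7, Rgs5, Rhcg and Txnrd1 in 5, and S100a8 in 5 of 13. No paired analysis was possible because the labels number the 6 libraries 1 to 6 and the groups share no number. Depth limits the B cell, T cell and neutrophil genes, most of them under 2 CPM. Spread between libraries of a group limits the unpaired test of the immediate-early and globin genes. For Fos, Egr1, Jun, Hba-a1 and Alas2 that spread had the same order by library number in both groups. Whether this order reflects shared mice was not tested. With 3 libraries a side, an exact permutation test of a single gene cannot go below p = 0.1.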

Other observations

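Several regulatory gene lists not yet described held genes that passed the test, which over all genes 7.99% did as higher and 12.1% as lower. Of 11 metallothionein and Nrf2 target genes, which answer metals and oxidants, 5 were lower and none was higher, with a median of -0.18: Gstm1, a glutathione transferase, fell by 0.74, Gclm and Gclc, which make glutathione, by 0.57 and 0.53, Nqo1, a quinone reductase, by 0.46 and Txnrd1, a thioredoxin reductase, by 0.18. Of 13 interferon-response genes 3 were lower, Gbp3, a guanylate-binding protein, by 2.42, and without suspension 1 or suspension 2 only 1 was. Of 15 hypoxia genes 2 were higher and 1 was lower, with Vegfa, the vascular growth factor, at 0.22 and Ero1l, an oxidase of protein folding, at -0.23. Leaving out any 1 library left 1 to 2 hypoxia genes higher and 0 to 1 lower, with 1 higher without intact kidney 2, intact kidney 3 or suspension 1 and none lower without intact kidney 1, intact kidney 2 or suspension 3. Of 9 tested NF-kB and cytokine genes 2 were higher, Il1b, interleukin 1 beta, by 1.45 and Nfkbiz, an inducible regulator, by 0.51. Of NF-kB and cytokine genes 1 was higher without intact kidney 1, intact kidney 2 or suspension 3 and 4 were without intact kidney 3. Nfkbiz did not pass in 3 of 14 alternatives. Of 10 p53 target genes 2 were higher, Pmaip1 by 0.47 and Gadd45a by 0.19, the latter with an adjusted p of 0.0485 and lost in 9 of 14 alternatives.

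Over all genes 7.99% were higher and 12.1% lower at adjusted p, which is the background for the lists that follow. Of 15 tested clock genes 1 was higher, Bhlhe41, by 0.94, and 1 was lower, Bhlhe40, a related repressor, by 0.40. These clock counts were near that background. Agt, angiotensinogen, fell by 1.91 and Agtr1a, its receptor gene, by 0.24, so that with Ace 3 of 6 tested genes of the renin-angiotensin system were lower. Of 6 nuclear noncoding RNAs 2 were lower, Kcnq1ot1, an imprinted antisense RNA, by 0.74 and Snhg11 by 0.71. The strand setting of the counting is not given, so reads of Kcnq1ot1 and of its overlapping gene may be mixed. Of 16 tested replication-dependent histone genes, whose mRNAs mostly lack a poly(A) tail, 3 were lower and none higher, and without intact kidney 2 or intact kidney 3 none was lower.

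Male libraries of the series held intact kidneys of Balb/c mice at 18 weeks and cold suspensions of AFAPIL.1DEL C57BL/6J mice at 19 weeks, 3 of each, with total counts of 2325945 to 7876284 and 5966485 to 8181399. Strain, age, library method, read length and depth differ between those groups and cannot be told apart from dissociation. Values are therefore given with no test, as the difference of log2(mean CPM + 0.5) over 14095 genes, whose median was -0.0033. Among S3 genes 13 of 14 were lower in the male suspensions, with a median of -2.10, and all 9 S1 genes were higher, with a median of 0.86. Interstitial matrix genes were lower for 20 of 21, with a median of -1.63, and B cell genes higher for 9 of 10, with a median of 2.77. Endothelial genes had the opposite sign to the female libraries, higher for 15 of 19 with a median of 0.87, and so did Slco1a6, an S3 gene, at 192 to 239 CPM in the intact kidneys and 381 to 386 CPM in the suspensions. Many other lists also had a median of the opposite sign. Among them, principal cell genes of the collecting duct were lower for 8 of 11, with a median of -0.29, fatty acid oxidation genes higher for 15 of 19, with a median of 0.32, and both mitochondrial rRNA genes lower, with a median of -1.28. Renin-angiotensin, interferon-response, thick ascending limb, metallothionein and Nrf2 target, intercalated and plasma cell genes were others, with male medians of 0.40, 0.27, 0.22, 0.12, -0.05 and -2.18. Urothelial genes were split, 3 of 6 higher. Slc7a13, the S3 transporter that stayed under 1 CPM in every female library, was at 656 to 675 CPM in the male intact kidneys and 337 to 465 CPM in the male suspensions. Gm10800 was at 259.7, 19.6 and 2.67 CPM in the male intact kidneys and had no count in the male suspensions.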
